A study of Mus musculus with 6 samples.

Results

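The Schlafen genes were described by 7 members, Slfn1, Slfn2, Slfn3, Slfn4, Slfn5, Slfn8 and Slfn9, taken as a list by name. The array annotation placed all 7 on 8 probe sets out of 25335 that carry at least 1 gene symbol. Of these, 6 name 1 gene, whereas probe set 17266851 names Slfn9 and Slfn8 together and probe set 17266847 names Slfn5 and its antisense transcript Slfn5os. Slfn9 therefore has no probe set of its own, and Slfn5 and Slfn8 are each on 2. The arrays were GeneChip Mouse Gene 2.0 ST arrays of CD4+ T cells from spleens of wild-type C57BL/6 female mice of about 8 weeks. All cells had first been stimulated with antibodies to CD3 and CD28 (10 µg/mL each) for 24 h, so that both groups were of activated cells. The icilin group (n = 3 arrays) was then kept for 24 h with 100 µM icilin, a synthetic cooling compound that opens the channels TRPM8 and TRPA1, and the vehicle group (n = 3 arrays) with the solvent DMSO. Both groups came from the same 3 mice. A single concentration and a single time were measured, and no unstimulated cells are part of the comparison.

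Schlafen proteins are a family of mammals named after the German word for sleep, because the first members were found in studies of thymocyte development and growth arrest. The mouse proteins fall into a short group (Slfn1 and Slfn2), an intermediate group (Slfn3 and Slfn4) and a long group with an additional helicase-like part (Slfn5, Slfn8, Slfn9, Slfn10 and Slfn14). Several members bind or cut transfer RNA, type I interferon induces many of them, and loss of Slfn2 function in mice is known to break the quiescence of T cells.

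The genes lie side by side on mouse chromosome 11. The sequences before their start sites are shown because Slfn5, Slfn8 and Slfn9 hold a pattern there that Slfn1, Slfn2, Slfn3 and Slfn4 lack. RefSeq (GRCm38.p6) gave a promoter sequence for all 7 members, and the 250 bases before the start site were searched on both strands. The search used 3 letter patterns. GAAANNGAAA is the core of the interferon-stimulated response element, TTCNNNGAA is the site bound by activated STAT dimers, and ACTTCCTGG is the longest run of bases (9) that Slfn1, Slfn2, Slfn3 and Slfn4 share on the same strand and holds, read on the other strand, the GGAA core bound by ETS factors. The whole 250 bases are printed for Slfn1, the member with the largest rise, and 30 bases on either side of the match for the others. Capitals mark the matches.
Slfn1 (chr11:83116570-83116819, plus strand): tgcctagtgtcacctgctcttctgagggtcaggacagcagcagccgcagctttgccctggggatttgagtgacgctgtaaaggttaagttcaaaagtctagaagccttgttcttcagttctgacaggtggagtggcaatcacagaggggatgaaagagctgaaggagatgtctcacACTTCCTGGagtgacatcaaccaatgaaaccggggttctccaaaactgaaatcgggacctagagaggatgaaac
Slfn2 (chr11:83065027-83065095, plus strand): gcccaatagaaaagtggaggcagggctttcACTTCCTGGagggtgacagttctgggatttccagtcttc
Slfn3 (chr11:83191258-83191326, plus strand): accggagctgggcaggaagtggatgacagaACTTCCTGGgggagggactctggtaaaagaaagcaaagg
Slfn4 (chr11:83175083-83175151, plus strand): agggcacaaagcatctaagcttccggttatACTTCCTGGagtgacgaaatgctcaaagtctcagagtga
Slfn5 (chr11:82951917-82951986, plus strand): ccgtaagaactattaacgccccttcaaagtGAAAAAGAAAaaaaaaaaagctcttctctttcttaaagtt
Slfn8 (chr11:83020819-83020888, minus strand): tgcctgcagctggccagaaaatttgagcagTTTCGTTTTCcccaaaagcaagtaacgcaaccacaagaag
Slfn9 (chr11:82991836-82991905, minus strand): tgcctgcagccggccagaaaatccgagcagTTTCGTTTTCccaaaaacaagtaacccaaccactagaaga

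The response element core stood before Slfn5, Slfn8 and Slfn9, 3 of the long members, and had no match before Slfn14, another long member, or before Slfn1, Slfn2, Slfn3 and Slfn4. The block ACTTCCTGG is in the latter 4 by its definition, and had no match before Slfn5, Slfn8, Slfn9 or Slfn14. The block began at base -74 of Slfn1, -55 of Slfn2, -42 of Slfn3 and -73 of Slfn4, counted from the start site. The response element core began at base -155 of Slfn5, where it is part of a run of A, and at -48 of Slfn8 and -45 of Slfn9, where it reads on the opposite strand. Of the 250-base promoters of 27025 genes, 0.744% hold the block and 3.04% hold the response element core. The share for the block only describes it, since its letters were taken from these promoters. The STAT pattern had no match in the 7 windows and is found in 7.18% of all promoters. None of the 7 windows held more than 1 of the 3 patterns, so the patterns could not overlap one another there. Among 26 interferon-stimulated genes with a promoter in the table, 9 (34.6%) hold the response element core. The Slfn8 and Slfn9 windows were 80.2% identical in a global alignment, whereas the other 20 pairs of members ranged from 45.5% to 53.4%. Slfn8 has 2 start sites in the table, and the first was used.

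**Figure D1:**
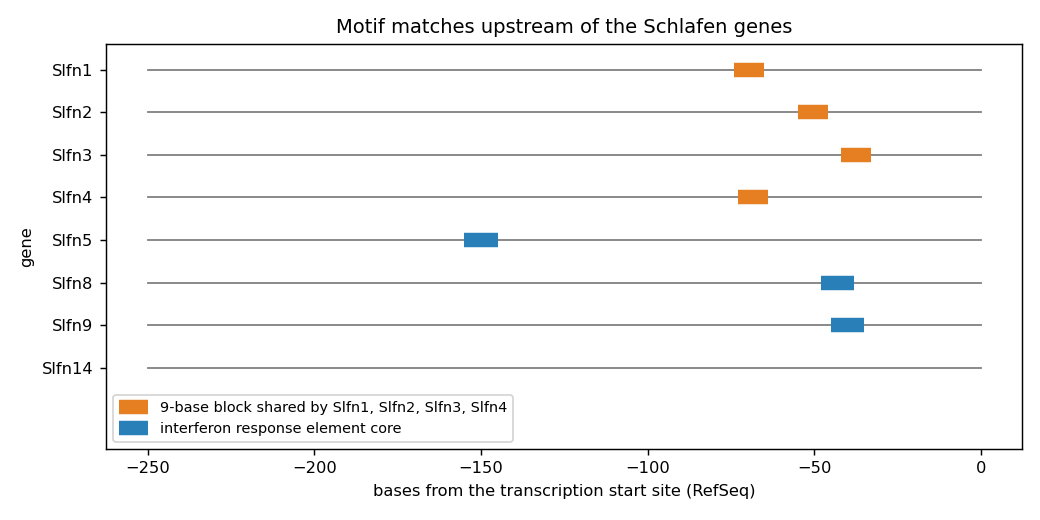
Positions of the pattern matches in the 250 bases before each Schlafen gene, with the start site at 0 on the horizontal axis and 1 line per gene. The block of 9 bases (orange) lies between -74 and -34 in Slfn1, Slfn2, Slfn3 and Slfn4, and the response element core (blue) is in Slfn5, Slfn8 and Slfn9, while Slfn14 has neither.

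The values are log2 levels after robust multi-array averaging (RMA), in which 1 unit is a 2-fold difference. Medians of the 6 arrays lay between 4.24 and 4.30, and across probe sets, which are not independent replicates, arrays of 1 group correlated at r of 0.996 and arrays of different groups at 0.994. A probe set was called at an adjusted p under 0.1 (limma, Benjamini-Hochberg over 25335 probe sets) and a change of at least 1.5-fold (0.585 on the log2 scale), the limits of the study. T cell identity was as labelled: all 10 measured T cell and CD4 markers were brighter than 92.2% of probe sets or more. Cd4 differed between the groups by 0.03 ± 0.06 (SE). By limma and by significance analysis of microarrays (SAM), the test of the study, 0 of the 10 were called. The shares of all probe sets called by limma were 0.343% (higher) and 1.01% (lower). Zap70, with the smallest p of the 10, was lower (-0.33 ± 0.06; limma adjusted p = 0.0449). Cd28, chosen after its value was seen, was higher (0.34 ± 0.07; limma adjusted p = 0.0577). Both passed the adjusted p limit and fell short of 1.5-fold. Before adjustment, 1 marker was higher and 1 lower with a limma p under 0.05, beside 8.75% and 7.82% of all probe sets. As a reference for genes that T cells are not known to express, the 95th percentile of 1405 probe sets of olfactory and vomeronasal receptor genes was 4.08.

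Within the family, Slfn1 rose with icilin and the other members were not called. Of the 8 probe sets 1 was called higher, against 0.343% of all probe sets, and 0 were called lower by limma or SAM, against 1.01%. At an unadjusted p under 0.05, 4 of the 8 were higher (8.75% of all) and 0 were lower (7.82% of all). In 7 of 8 the log2 fold change was above 0 (52.8% of all), with a median of 0.18 beside 0.01 for all probe sets. In 4 of 8 the icilin arrays all lay above the vehicle arrays, compared with 13.1% of all probe sets. Since members were chosen with results of these arrays known, these counts describe them and are not a test of the family. The receptor reference was exceeded by 5 probe sets and not by 3, and the groups overlapped in all 3 of the dim ones.

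**Figure D2:**
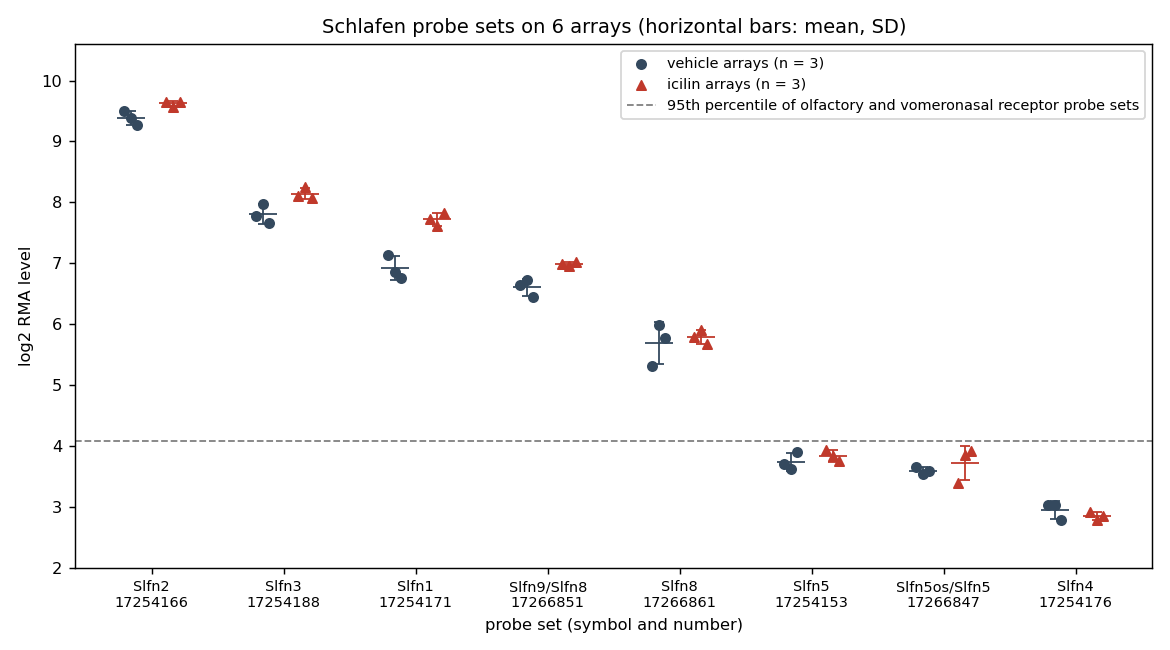
Log2 RMA level (vertical axis) of each Schlafen probe set on every array, ordered by brightness, with vehicle arrays as circles, icilin arrays as triangles, and mean and SD (n = 3) as bars. Slfn2, Slfn3, Slfn1 and the shared Slfn9 and Slfn8 probe set have every icilin array above every vehicle array, and Slfn5 and Slfn4 lie below the dashed receptor reference at 4.08.

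Slfn1 encodes a short Schlafen protein, known for slowing the growth of T cells when it is forced on. Its probe set 17254171 read 7.72, 7.62 and 7.83 in icilin replicates 1, 2 and 3, and 7.14, 6.86 and 6.76 in vehicle replicates 1, 2 and 3. The lowest icilin array was 0.48 above the highest vehicle array, so the groups did not overlap. The group means were 7.72 ± 0.11 (SD, n = 3) with icilin and 6.92 ± 0.19 with vehicle. The rise was 0.80 ± 0.11 (SE) on the log2 scale, or 1.75-fold, with a 95% interval of 0.54 to 1.07 and an adjusted p of 0.0144 by limma. Among all probe sets it was the 31st largest rise. Leaving out 1 array at a time gave 0.73 to 0.91, and the call held each time (limma adjusted p 0.0158 to 0.0700). In a bulk measurement a larger share of cells with the transcript and more transcript per cell cannot be told apart.

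Slfn2, the other short member and the one tied to T cell quiescence, was the brightest of the family, above 95.3% of all probe sets. The icilin arrays read 9.65, 9.57 and 9.65 and the vehicle arrays 9.51, 9.39 and 9.27. All icilin arrays were higher, with 0.06 between the nearest arrays of the groups; the difference was 0.24 ± 0.08 (95% interval 0.05 to 0.43; limma adjusted p = 0.206), short of the threshold. The interval lies below 1.5-fold. Levels of different genes on an array are not comparable as amounts of RNA, since each probe set has its own probes.

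The intermediate members differed from each other in brightness. Slfn3, which in mice lies next to Slfn4, read 8.10, 8.24 and 8.08 with icilin and 7.78, 7.98 and 7.66 with vehicle. Its icilin arrays were all higher, with 0.10 between the nearest arrays of the groups, and its difference of 0.33 ± 0.10 was not called (95% interval 0.10 to 0.56; limma adjusted p = 0.157). Slfn4, a gene best known from macrophages and other myeloid cells, was the dimmest member, brighter than 20.4% of probe sets and below the receptor reference. It read 2.91, 2.78 and 2.85 with icilin and 3.03, 3.02 and 2.78 with vehicle, and the groups overlapped (-0.09 ± 0.09; 95% interval -0.31 to 0.12; limma adjusted p = 0.677). At this brightness the array gives no level for Slfn4 that can be set apart from that of receptor genes.

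The long members were measured in part through shared probe sets. The probe set of both Slfn9 and Slfn8 read 6.99, 6.95 and 7.02 with icilin and 6.64, 6.72 and 6.45 with vehicle. The groups did not overlap, and the difference was 0.38 ± 0.09 or 1.30-fold (95% interval 0.18 to 0.58; limma adjusted p = 0.0713). It passed the adjusted p, as 2.06% of all probe sets did in the higher and 2.82% in the lower direction, but not the fold limit. With any 1 array left out the adjusted p was 0.103 to 0.196. The signal cannot be divided between the 2 genes. The probe set of Slfn8 alone read 5.79, 5.90 and 5.67 with icilin and 5.31, 5.98 and 5.78 with vehicle. Here the vehicle arrays spanned the icilin arrays. The difference was 0.10 ± 0.17 (95% interval -0.30 to 0.50; limma adjusted p = 0.823), and without vehicle replicate 1, the lowest array, it was -0.09.

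Slfn5, a long member that is induced by interferon in several cell types, was dim on both of its probe sets. Probe set 17254153 read 3.94, 3.83 and 3.75 with icilin and 3.70, 3.62 and 3.89 with vehicle. The groups overlapped (0.10 ± 0.09; 95% interval -0.12 to 0.32; limma adjusted p = 0.662). Probe set 17266847, shared with Slfn5os, read 3.39, 3.85 and 3.91 with icilin and 3.66, 3.54 and 3.58 with vehicle. Icilin replicate 1 was the lowest and icilin replicate 3 the highest of the 6 arrays, and the difference was 0.13 ± 0.14 (95% interval -0.20 to 0.45; limma adjusted p = 0.719). Both means lay under the receptor reference.

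Further Schlafen genes outside the list were not called either. Slfn10-ps, a relative of the long members whose name marks it as a pseudogene, read 5.90, 6.08 and 6.22 with icilin and 6.17, 6.29 and 5.88 with vehicle (-0.05 ± 0.13; limma adjusted p = 0.897). Slfn14, a long member known from red cell and platelet precursors, was below the receptor reference. It read 2.59, 2.72 and 2.69 with icilin and 2.90, 2.75 and 2.94 with vehicle, so that every icilin array was lower (-0.19 ± 0.08; limma adjusted p = 0.280). Slfnl1, a distant relative on chromosome 4, read 4.54, 4.21 and 4.47 with icilin and 4.18, 4.40 and 4.52 with vehicle (0.04 ± 0.12; limma adjusted p = 0.907).

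The rise of Slfn1 was set against each other member as a ratio within the same array, which does not depend on how arrays are scaled. Relative to Slfn2, its neighbour in the short group, Slfn1 was 0.57 ± 0.06 (SE) higher with icilin than with vehicle on the log2 scale. The corresponding values were 0.47 ± 0.18 against Slfn3, 0.42 ± 0.11 against the shared Slfn9 and Slfn8 probe set and 0.71 ± 0.33 against Slfn8. In 3 of these 4 pairs the icilin arrays were apart from the vehicle arrays, the exception being Slfn8. The ratio of Slfn1 to other probe sets above the receptor reference was apart in the same direction for 97.5% of 14590, so this count says nothing particular about the family. The 95% interval of the ratio to Slfn3 was -0.02 to 0.96. Ratios to Slfn4 and Slfn5, which lie below the receptor reference, have no exact size and are not given. Of the 10 pairs of members above the reference, 4 were apart, beside 32.4% of all pairs of such probe sets. The fourth was Slfn2 against the shared probe set (-0.15 ± 0.06). An exact two-sided permutation test of 3 against 3 arrays cannot give a p below 0.1, which these 4 pairs reached (0.233 after adjustment over all 21 pairs computed), so no pair could pass. Slfn2 and Slfn3 differed in their change by -0.09 ± 0.12 (95% interval -0.43 to 0.24), and Slfn8 and the shared probe set by -0.28 ± 0.23 (95% interval -0.91 to 0.35).

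**Figure D3:**
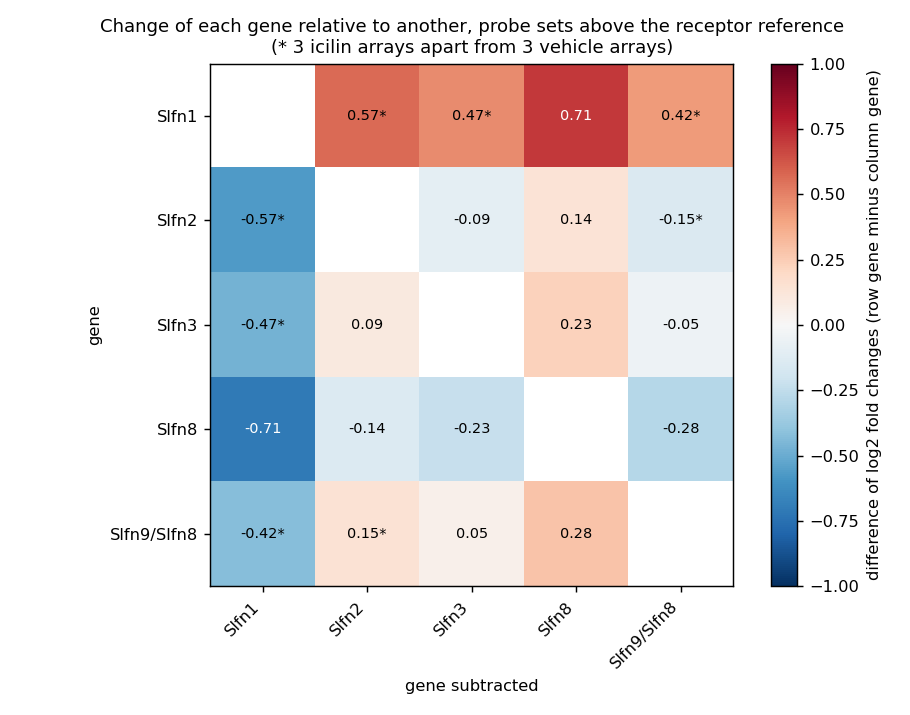
Difference of log2 fold changes for each pair of members above the receptor reference, row gene minus column gene, from ratios within each array, with Slfn9 represented by its probe set shared with Slfn8. The Slfn1 row is positive throughout, from 0.42 to 0.71, and asterisks mark the 4 pairs whose icilin and vehicle arrays do not overlap.

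Along the chromosome the called gene stood among neighbours that were not called. RefSeq lists 20 entries from Slfn5os to Slfn14, of which 10 are Schlafen entries, and 2 of the other 10 have a probe set of their own. Gm20234, a noncoding transcript beside Slfn2, differed by -0.09 ± 0.11 (limma adjusted p = 0.744). AI662270, a noncoding transcript between Slfn3 and Slfn14, was bright and had all icilin arrays higher, from a mean of 10.2 with vehicle to 10.5 with icilin. Its difference of 0.27 ± 0.08 was not called (limma adjusted p = 0.131). Of the 3 protein-coding genes on either side, 5 were measured. The ribosome assembly gene Nle1 was at 0.23 ± 0.07, the myosin chaperone gene Unc45b at -0.15 ± 0.10 and Fndc8 at -0.21 ± 0.14 on the Slfn5 side. The adaptor protein gene Ap2b1 was at -0.04 ± 0.06 and Rasl10b at 0.02 ± 0.09 on the Slfn14 side. None of these 5 was called, with adjusted p from 0.149 to 0.936.

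**Figure D4:**
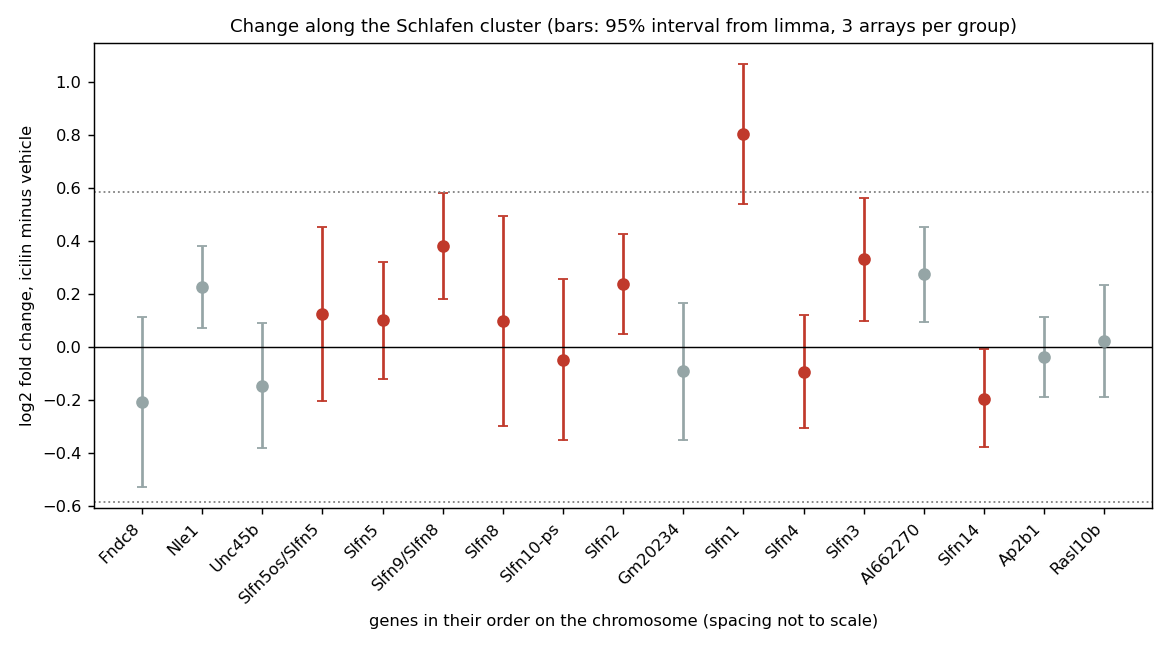
Log2 fold change, icilin minus vehicle, with 95% interval from limma (3 arrays per group) for genes in their order on chromosome 11, Schlafen entries in red and other genes in grey, and the 1.5-fold limit as dotted lines. Slfn1 at 0.80 is the single point beyond the dotted lines.

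Genes of interferon reception and signalling, the pathway that induces Schlafen genes, gave 0 calls by limma or SAM among 15 measured of 16 listed. At an unadjusted p under 0.05, 5 were higher and 1 was lower, beside 8.75% and 7.82% of all probe sets. The median was 0.09. Irf1, an interferon-induced transcription factor, had the smallest p of the list and was higher by 0.48 ± 0.07 (limma adjusted p = 0.0133), short of 1.5-fold. The kinase gene Jak2, chosen after its value was seen, was lower by the same test without reaching the fold limit (-0.37 ± 0.06; limma adjusted p = 0.0251). The receptor genes Ifnar1 (0.20 ± 0.07) and Ifnar2 (0.20 ± 0.08), and Stat2 (0.23 ± 0.07) and Irf9 (0.27 ± 0.09), which encode parts of the factor that binds the response element, were not called. These 4 were also chosen after their values were seen. The type I interferon gene Ifnb1 lay below the receptor reference in both groups, at 2.30 with icilin and 1.98 with vehicle.

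Among 32 measured interferon-stimulated genes of 37 listed, 0 were called higher by limma or SAM and 2 fell, and the median was 0.08. The shares of all probe sets called by limma were 0.343% higher and 1.01% lower. The 2 were Ifih1 (-0.67 ± 0.10; limma adjusted p = 0.0159) and Dhx58 (-0.66 ± 0.09; limma adjusted p = 0.0156), which encode sensors of viral RNA. The fall of Ifih1 was below 1.5-fold without vehicle replicate 1 (-0.58), and that of Dhx58 without vehicle replicate 2 (-0.57). At an unadjusted p under 0.05, 8 members were higher and 3 lower (8.75% and 7.82% of all probe sets). Without the fold limit 3 were higher, namely Zbp1 (0.44), Ifit2 (0.42) and Parp14 (0.29), named after their values were seen. Slfn1 was above every measured gene of this list in its change (highest Trim30a, 0.50 ± 0.20, chosen after its value was seen). Since Slfn1 had the 31st largest rise of 25335 probe sets, this order says nothing particular about the list.

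T cell quiescence genes, the programme in which Slfn2 is placed, gave 1 call among 16 measured of 18. By limma, 0.343% of all probe sets were called higher and 1.01% lower. Il7r, the interleukin 7 receptor of resting and memory T cells, rose by 0.72 ± 0.07 (limma adjusted p = 0.00381), from 8.49 to 9.21. The list median was -0.09, and 5 of 16 had a difference above 0, beside 52.8% of all probe sets. At an unadjusted p under 0.05, Il7r was higher and 3 members were lower (8.75% and 7.82% of all). These 3, chosen after their values were seen, were Foxo1 (-0.22), Btg2 (-0.31) and Vsir (-0.30), and limma called none of them (adjusted p 0.103 to 0.148). Among 7 measured genes of tRNA cleavage and its control, a process in which Schlafen proteins take part, limma and SAM called 0, with 3 higher and 1 lower when p under 0.05 was left unadjusted (8.75% and 7.82% of all). The tRNA methyltransferase gene Trdmt1 had the smallest p (0.33 ± 0.07; limma adjusted p = 0.0502). Tsen15 was higher (0.38 ± 0.08; limma adjusted p = 0.0567). Rnh1, the inhibitor of the tRNA-cutting enzyme angiogenin, was lower (-0.34 ± 0.07; limma adjusted p = 0.0591). Tsen15 and Rnh1 passed the adjusted p limit but not 1.5-fold, and both were chosen after their values were seen.

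**Figure D5:**
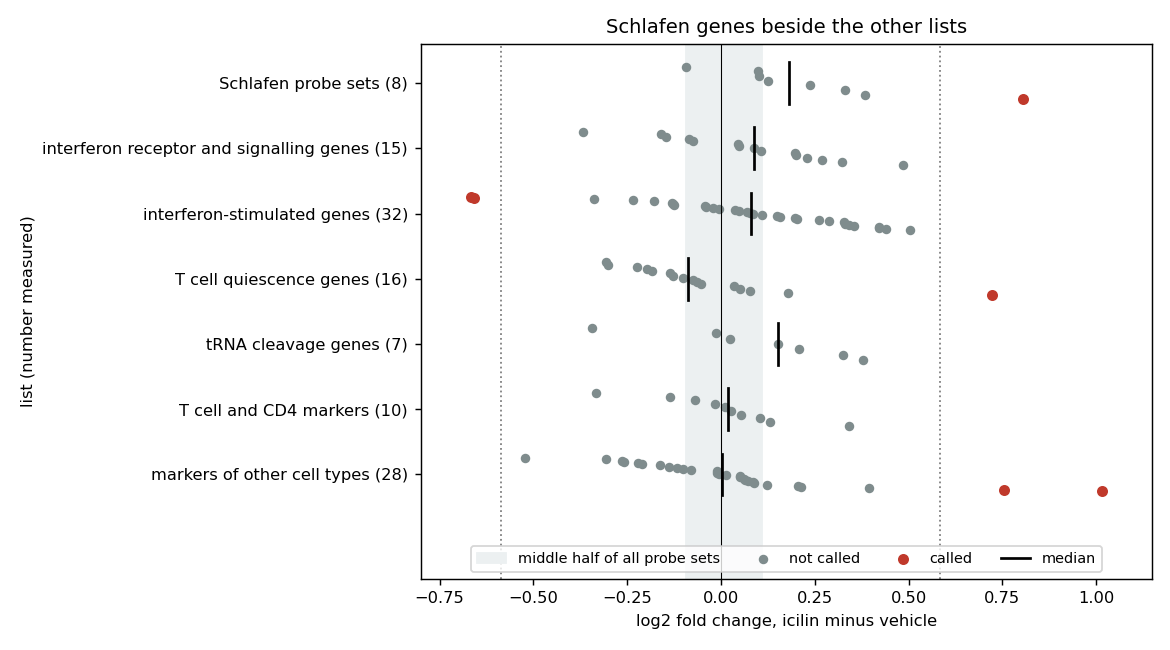
Log2 fold change of every measured gene in 7 lists (horizontal axis; number measured beside each name), with called genes in red, medians as black bars and the grey band holding the middle of all probe sets from quartile to quartile (-0.09 to 0.11). Slfn1 at 0.80 is the called point of the Schlafen row, and the interferon-stimulated row holds calls only on the lower side.

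The 5 genes whose profile over the 6 arrays lay nearest to that of Slfn1, out of 18813, were Cebpb, Phf11b, Gpr33, Il7r and Glce. Nearness was the root mean square difference of log2 levels, each profile centred on its own mean, and it ran from 0.07 for Cebpb to 0.10 for Glce. Cebpb, a transcription factor gene, read 6.54, 6.39 and 6.63 with icilin and 5.94, 5.84 and 5.52 with vehicle. As with Slfn1, icilin replicate 2 and vehicle replicate 3 were the lowest arrays of their groups. Since Cebpb was picked for nearness over these same 6 arrays, this likeness comes with the choice and is no separate result. All 5 were called, from 0.72 (Il7r) to 0.76 (Cebpb), as follows from being near a called gene. Phf11b was no longer called when icilin replicate 1, icilin replicate 3 or vehicle replicate 2 was left out (0.71 to 0.75; limma adjusted p 0.124 to 0.135). Gpr33 was not called in the absence of vehicle replicate 2 (0.66; limma adjusted p = 0.108) or vehicle replicate 3 (0.69; limma adjusted p = 0.114).

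Schlafen genes are also expressed in B cells, natural killer cells and myeloid cells, whose markers were measured beside them. Of 28 measured markers of other cell types out of 34 listed, 17 were below the receptor reference, 2 rose and 0 fell by limma and by SAM. Among all probe sets, limma called 0.343% higher and 1.01% lower. The B cell marker Ms4a1 rose by 1.01 ± 0.10 (limma adjusted p = 0.00368). It went from 4.071 with vehicle, just under the receptor reference, to 5.085 with icilin. The mean log2 level of the 6 measured B cell markers was 4.59 to 4.64 in icilin arrays and 4.35 to 4.47 in vehicle arrays. That mean was higher with icilin, as Slfn1 was, and its part in that result was not tested. Ms4a1 had by far the largest change of the 6. The others stood at 0.09 (Cd79a), -0.01 (Cd79b), 0.21 (Pax5), 0.05 (Blk) and -0.12 (Cr2). The myeloid marker Mpeg1 rose by 0.75 ± 0.16 (limma adjusted p = 0.0609). It was no longer called when any 1 of 4 arrays was left out, namely replicates 1 and 3 of each group (0.63 to 0.76; limma adjusted p 0.159 to 0.167). The mean of the 11 myeloid markers was 3.55 to 3.61 with icilin and 3.49 to 3.62 with vehicle. Of them, 9 were below the receptor reference, among them Lyz2, Csf1r, Cd14, S100a8 and Mpeg1 itself. Mpeg1 had a mean of 4.07 over all arrays, 3.69 with vehicle and 4.45 with icilin, so its rise lies near the level of receptor genes. For natural killer cells the mean of 4 markers was 3.44 to 3.50 with icilin and 3.56 to 3.76 with vehicle, with Klrb1c at -0.52 ± 0.15 (limma adjusted p = 0.141). For dendritic cells the mean of 5 markers was 3.86 to 3.97 with icilin and 3.95 to 4.06 with vehicle, with Siglech at -0.16 ± 0.08 (limma adjusted p = 0.394). Below the receptor reference were 3 of the 4 natural killer markers, Klrb1c included, and 4 of the 5 dendritic markers, Siglech included. The 2 CD8 markers had a mean of 5.34 to 5.70 with icilin and 5.20 to 5.48 with vehicle, with Cd8b1 at 0.39 ± 0.12 (limma adjusted p = 0.176). None of the 4 listed red cell markers had a probe set of its own.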

How the data were processed

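Levels are log2 RMA values as deposited by the authors, who per the series design text took background correction, normalization and summary per probe set from that method, starting from 0.25 µg of RNA (integrity number 8 or more). The table has 41345 probe sets, of which 23521 have 1 symbol, 1814 several and 16010 none in the array annotation. The 25335 with a symbol entered 1 two-sided limma comparison (version 3.58.1, R 4.3.3; lmFit, then eBayes with 4 residual and 3.09 prior degrees of freedom) of icilin against vehicle. For lists, the brightest probe set with 1 symbol stood for a gene. RMA makes array distributions alike, which hides any shift that nearly all genes share, and it compresses changes of dim genes. The depth of an array is not a read count, and its precision is limited by 3 arrays per group (median SE 0.09).

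Members and lists were chosen with earlier results of these data known. The text names every Schlafen probe set, up to 4 called genes of each list (otherwise the one with the smallest p), the 5 nearest profiles, leaving out predicted genes and small RNAs, and cluster neighbours. Other genes are marked as chosen after their values were seen. Alternatives were a replicate block, variance trend, centring, quantile normalization, dim probe sets left out, other sets of rows, other limits, single arrays left out, and SAM (significance analysis of microarrays, 20 regroupings), which the study used and which was written anew. limma and SAM were tested on simulated data. Promoters were aligned with Biopython 1.88 (match 1, mismatch -1, gap opening -2, extension -0.5). The genome build of the array annotation is not given in the sources used here.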

Additional observations from a re-analysis of the deposited data

How the results depend on the processing

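Slfn1 kept its rise and its call under all 16 alternatives (0.73 to 0.91; adjusted p 0.000317 to 0.0700). The count of Schlafen probe sets called higher was 1 in all but 1 alternative: without the fold limit it was 2, the second being that of Slfn9 and Slfn8 (0.38), whose adjusted p ranged from 0.0122 to 0.196. That adjusted p was 0.176 over every probe set of the table and 0.141 by SAM. Without the fold limit, 522 probe sets were higher and 714 lower. The lists then held 1 higher and 1 lower signalling gene, 3 higher and 2 lower interferon-stimulated genes, 1 higher quiescence gene, 2 higher and 1 lower tRNA cleavage genes, and 3 higher and 1 lower markers. With 1 array left out, interferon-stimulated genes called lower numbered 1 to 2 and markers called higher 1 to 2. Pairs of members that were apart, 9 of all 21, then numbered 9 to 13, a count that fewer arrays can only keep or raise. Leaving arrays out of the pairs, and SAM on the lists, were chosen after seeing the data. The sign turned with single arrays left out for Slfn8 (-0.090 to 0.24), Slfn10-ps (-0.17 to 0.040), Slfnl1 (-0.054 to 0.14) and the neighbour Rasl10b (-0.054 to 0.091); the cause was not tested. Same-numbered arrays did not deviate together (r of -0.03 to 0.00), so the numbers were not taken as pairs. With the replicate block, Slfn1 had an adjusted p of 0.0629 and was called, the shared Slfn9 and Slfn8 probe set one of 0.179, and the markers called higher fell to 1, since Mpeg1 had an adjusted p of 0.161. Gpr33 had one of 0.113 with the block. Over every probe set of the table, Mpeg1 (0.156) and Phf11b (0.113) were not called. The 3 dim probe sets of Slfn4 and Slfn5 limit what can be said of those genes.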
